A study of Mus musculus with 4 samples.

Results

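DNA repair genes were examined for sites of m6A, the methylation of adenosine at its N6 position in mRNA, in epidermal keratinocytes of newborn mice. The genes are those with a row in either of 2 deposited site lists whose biological process annotation holds the Gene Ontology term for DNA repair. This rule gave 127 genes of the 6625 with a site in either list. All mice were controls of postnatal day 0 with the genotype K14Cre, Mettl14 F/+ and no treatment. These controls therefore carry Cre, driven by the promoter of the keratin 14 gene of basal keratinocytes, together with a floxed allele of Mettl14, which encodes a subunit of the m6A methyltransferase. RNA fragments bound by an m6A antibody (IP) and unselected fragments (input) were sequenced in 4 libraries, 2 of each kind, and no other genotype is analysed here. The lists are called list 1 and list 2, and the labels tie neither of them to a replicate number, nor do they say if replicates are separate animals.

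The genes were chosen by their annotation and by the authors' call of a site in a list, at a fold of 2 or more. The counts and folds below therefore describe them and no test was made of them. Each site has the authors' own fold enrichment of IP over input, a score (-10 log10 of the site's p-value) and a false discovery rate (FDR) in percent. A fold has no error of its own, because the lists carry no counts per library, and the depth of the libraries is unknown. Of the 6 basal keratinocyte markers 5 had a site, and Krt14 had no row in the lists. Sites were also listed for 1 of 4 suprabasal markers, 4 of 4 fibroblast markers, 3 of 4 melanocyte markers, 2 of 3 endothelial markers and 1 of 2 immune markers, and their part in the sites of repair genes was not tested. A site needs an expressed transcript, but a missing site does not show a missing transcript.

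Cells repair DNA by several routes. Double-strand breaks are sensed by the Mre11-Rad50-Nbn complex and rejoined by homologous recombination or by end joining. Damaged bases are cut out by base excision, bulky lesions such as those made by ultraviolet light by nucleotide excision, and replication errors by mismatch repair, while crosslinks between strands need the Fanconi anaemia proteins. The epidermis is exposed to ultraviolet light, and inherited loss of nucleotide excision repair causes the skin disease xeroderma pigmentosum. In transcripts, m6A recruits reader proteins that act on splicing, decay and translation.

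A few repair genes carried a site that ended at or near a transcript start of the RefSeq promoter table, and their sequences are shown because they place the edge of a called site. A gene can have several such starts, and each start used here lies at or inside the outermost end of the gene. Of the member sites, 7 in 6 genes held some of the 50 bases that follow a start in that table (GRCm38.p6). Each line below gives 30 bases around that start on the strand of the gene, 5′ to 3′, and capitals mark bases inside the site. For Eya4 the start nearest to the site's edge is shown.
Hus1: aacctctgtgcccgcGCCCAGGTTTCCCCG
Uvrag: gcacgccagctctggGCCGGGTGGAGGGGT
Rbx1: tgcggggcaggcggcGGAAAGTGAGCCGGT
Chd1l: caCGCGCGGGAGCGAAGGCGCGGGGCCTCT
Eya4: tcCTGTTTTTACCAGAGACACAGCGCGAAG
Ino80: ttgttctggcctggctatggCGCCTCTCCT

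In Hus1, a subunit of the checkpoint clamp that is loaded at damaged DNA, the site of list 2 (chr11:9010918-9011191, fold 589.38, FDR 59.5%) ended exactly at the table's start, position 9011191, which is 45 bases inside the gene's outermost end. In Uvrag, which acts in autophagy and in the repair of double-strand breaks, the site of list 1 (chr7:99140855-99141144, fold 330.19, FDR 55.8%) also ended at a table start, 23 bases inside the outermost end. In Rbx1, the RING subunit of cullin ubiquitin ligases, the site of list 1 (chr15:81466316-81466450, fold 11.71) began at a start that is also the gene's outermost end, with an FDR of 100%. These 3 sites each shared an edge to the base with 1 start of the table. The sites of Chd1l, a chromatin remodeller recruited by poly(ADP-ribose) (chr3:97610128-97610203, fold 76.06 in list 2), and of Eya4, a phosphatase, reached 13 bases beyond a start. The Eya4 site stopped 40 bases short of another start of the table and 935 bases inside the outermost end, and the Chd1l site lay 19 bases inside it. Eya4 had that site at chr10:23349762-23349903 in both lists, with folds of 6.38 and 5.34 and an FDR of 100% in each. For the Chd1l site the FDR was 83.8%. In Ino80, the ATPase of the remodelling complex of that name, the site of list 1 (chr2:119477379-119477682, fold 8.71, FDR 100%) stopped 5 bases short of a start. That site ended 1003 bases inside the outermost end of the gene. The letters GGAC, the core of the m6A consensus, were searched on the strand of the gene in the shared part of those 50 bases. They were found for 1 of the 7 sites, that of Hus1, against 16.4% of the 562 sites of all genes that reach a start. No match says only that these letters are not in this window, and the sequence of the other sites was not used here.

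Among the 127 genes, 58 had a site in both lists (45.7%, 95% Wilson interval 37.3 to 54.3), where 39.4% of all genes with a site did, and 39.7% of those with a process annotation. The 58 genes are 69.9% of the 83 repair genes of list 1 and 56.9% of the 102 of list 2, where over all genes these shares were 62.3% and 51.7%. List 1 alone named 25 genes and list 2 alone 44, which is 19.7% and 34.6% where all genes gave 23.8% and 36.8%. An overlapping site, sharing at least 1 base between the lists, was present in 39 genes (30.7%, 23.4 to 39.2; all genes 27.2%). In the other 19 genes of both lists no sites touched, so that 67.2% of the genes in both lists had an overlap, against 69.2% over all genes. The repair genes held 132 sites in list 1 and 212 in list 2, of which 38.6% and 24.1% overlapped a site of the other list, beside 36.7% and 26.8% of all sites. For the shares given with an interval the value of all genes lay inside it. This did not hold with some other choices of sites: the share in both lists was 45.9% (37.0 to 55.2) against 34.6% at a p of 1e-05 or less, and 36.3% (27.1 to 46.5) against 25.9% at an FDR below 100%. In the 50% of sites with the higher score it was 38.7% (29.4 to 48.9) against 28.4%, and with equal numbers of the strongest sites 45.4% (36.7 to 54.3) against 33.1%. The share with an overlapping site was 24.2% (16.5 to 33.9) against 15.4% at an FDR below 100%. These intervals, here and below, cover counting error only. The genes were chosen by presence in a list and are part of all genes, so a value inside or outside an interval is no test.

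**Figure D1:**
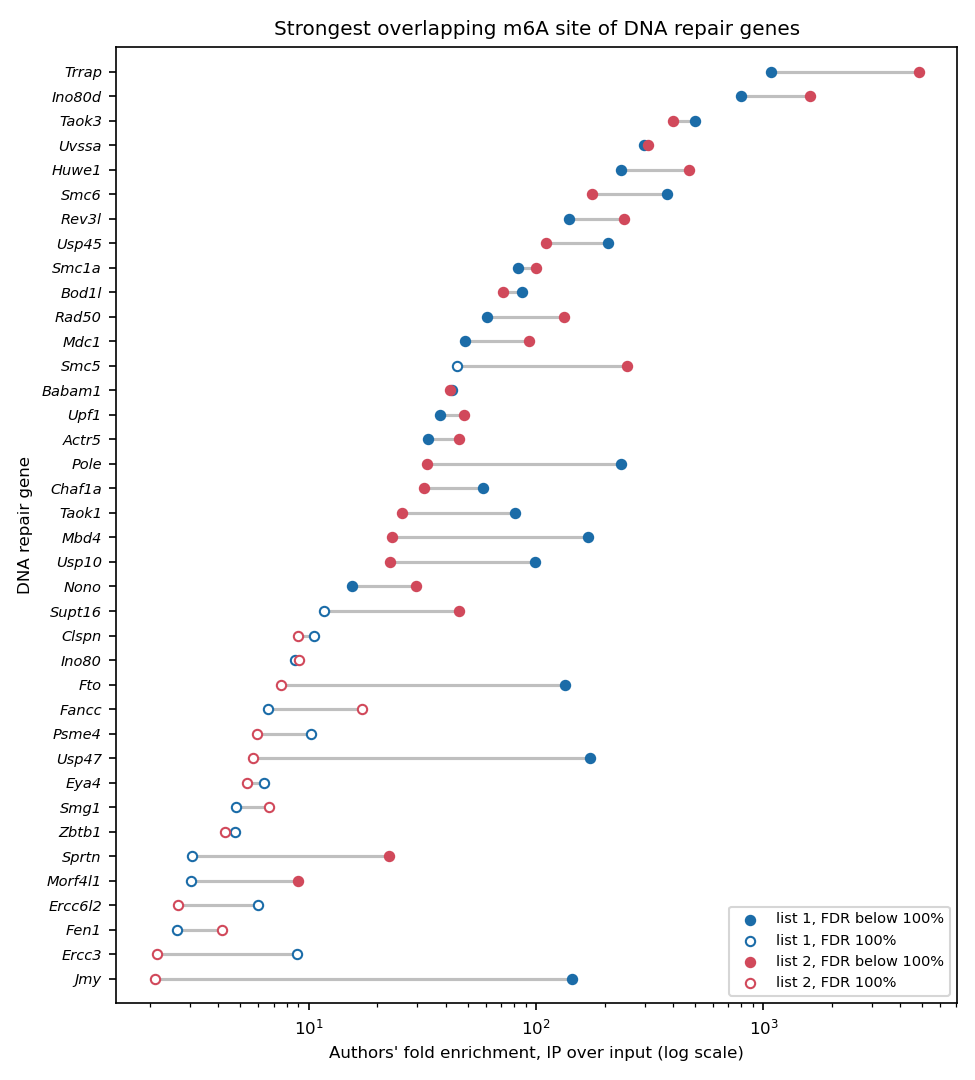
Shown are 38 of the 39 DNA repair genes with an overlapping site, ordered by the lower of the 2 folds at the gene's strongest such site (the one where that lower fold is highest). The x axis is the authors' fold enrichment of IP over input at the strongest overlapping site on a log scale, blue for list 1 and red for list 2, with open points at an FDR of 100% and a grey line joining the lists. Trrap stands highest with 1074.32 and 4823.75, and Jmy has the widest gap with 144.1 and 2.1.

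The 2 strongest overlapping sites lay in genes of chromatin complexes. Trrap, the scaffold of histone acetyltransferase complexes, had a fold of 1074.32 in list 1 (chr5:144771168-144771249) and 4823.75 in list 2 (chr5:144771089-144771249), with FDRs of 55.8% and 59.5%. Ino80d, a subunit of the Ino80 remodelling complex, had 797.99 and 1609.25 (chr1:63085909-63086267 in list 1). Taok3, a kinase, had 500.54 and 398.97 over the same interval in both lists, chr5:117250861-117251097. Behind these came Uvssa with 298.03 and 309.16, Huwe1 with 236.79 and 472.76, Smc6 with 378.21 and 175.69, Rev3l with 139.85 and 243.29, and Usp45 with 206.72 and 110.1. Smc1a with 83.42 and 99.72 and Bod1l with 86.61 and 71.18 completed the 10 highest. At each of these 10 sites the FDR was below 100% in both lists, and the score reached the tied value of 3100 in both except for Bod1l in list 2. These FDRs are still high, as the lowest of any repair site was 55.81% in list 1 and 59.47% in list 2.

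Several genes carried more than 1 overlapping site, and how many of all genes did was not computed. Trrap and Huwe1, a ubiquitin ligase, had 3 each. A further 8 genes had 2 each, namely Babam1, Bod1l, Rad50, Smc1a, Smg1, Supt16, Taok1 and Usp10. In Trrap the other 2 sites were much weaker than the first, with 9.37 and 8.98 at chr5:144817689-144817803, and 4.94 and 53.07 at chr5:144857385-144857579 in list 1. In Huwe1 the 3 overlapping sites had folds of 70.85 and 355.24, 236.79 and 472.76, and 77.12 and 62.7. The highest Huwe1 fold of either list, 734.51 at chrX:151847310-151847589, was in list 2 alone.

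Genes are taken by role below, in lists drawn up with earlier results of these data known. The share of all annotated genes with a site was not computed, so the coverage of a role has no background. Double-strand break sensing and checkpoint genes had a site in 14 of 30 genes of that role. Of these, 10 carry the DNA repair term, and all 4 found in both lists had an overlapping site. Rad50, the coiled-coil ATPase of the break sensor, had overlapping sites at chr11:53650228-53650615 (60.98 and 132.57) and chr11:53692883-53692901, just 19 bases in list 1 (83.36 and 18.9). Its highest folds, 568.94 in list 1 and 438.83 in list 2, were at sites that did not overlap. Mdc1, which binds phosphorylated histone H2AX at breaks, had 48.74 and 92.83 over the same interval, chr17:35854021-35854112. Babam1, a subunit of the BRCA1-A complex, had nearly equal values at both of its sites, 42.83 and 42, and 14.97 and 15.46. Clspn, the adaptor through which Atr activates Chk1, had 10.58 and 9 at its overlapping site, with an FDR of 100% in both lists, and a highest fold of 75.04 elsewhere in list 1. Mre11a (8.83), Rnf8 (2.31) and Trp53bp1 (13.83) had a site in list 1 alone, each at an FDR of 100%. Hus1, Brcc3 (140.42) and Rnf168 (50.75) had a site in list 2 alone. Among the genes without the term, Rif1 had an overlapping site and highest folds of 286.91 and 73.86, and the kinase gene Atm had 682.43 in list 2. Atr, Atrip, Chek2 and Topbp1 had no row in the lists.

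In homologous recombination 18 of 43 genes had a site, 9 of them with the term and 2 of these in both lists. Bod1l, which protects stalled forks, had overlapping sites at chr5:41794227-41794380 (86.61 and 71.18) and with 237.95 and 20.77 further upstream in the transcript. Its highest fold of list 2, 349.13, was at a position of its own. Sfr1, an accessory factor of recombination, had 4.84 and 16.19 at sites 912 bases apart. The remaining 7 were each in a single list. Wrn, a helicase lost in Werner syndrome, had the highest fold of any repair gene found in list 2 alone, 819.98 at chr8:33324209-33324522. Rbbp8, which starts the resection of break ends, had 7 sites in list 2 (highest fold 131.34) and none in list 1, the most of any gene found in a single list.

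Of 22 Fanconi anaemia and crosslink genes 7 had a site, and of the 6 with the term only Fancc, a core complex subunit, was in both lists. Its overlapping site had folds of 6.62 and 17.22 with an FDR of 100% in both, while its highest fold was 587.05 at another position in list 2. Fanca (5.34 at a site of 12 bases) and Usp1 (9.37), the deubiquitinase of Fancd2, had a site in list 2 alone. Fancb, Fancd2, Fance and Fancf had no row. Of 13 end joining genes 3 had a site, and neither of the 2 with the term had an overlap. The deposited end-joining pathway, drawn up differently, held 4 repair genes, 3 of them in both lists and 2 with an overlap. Polq, the polymerase of microhomology-mediated joining, had 59.78 in list 1 and 3 sites of up to 219.02 in list 2, the nearest 2108 bases from the site of list 1. Xrcc5, which encodes the Ku80 subunit, had 128.84 in list 1 and 8.09 in list 2, 30546 bases apart. Xrcc6, Xrcc4, Lig4 and Nhej1 had no row, and Prkdc, without the term, had 235.9 in list 1.

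Base excision and single-strand break repair had a site in 9 of 26 genes, all with the term. Mbd4, a glycosylase that removes thymine from mismatches at CpG, had 169.25 and 23.26 at its overlapping site (chr6:115848845-115849226 in list 1). Fen1, the flap endonuclease, had 2.64 and 4.15 with an FDR of 100% in both lists. Lig3 had 172.32 in list 1 and 10.95 in list 2 at different positions, 3228 bases apart at the nearest. Xrcc1 (2.22) was in list 1 alone, and Apex2 (149.57), Lig1, Neil3, Nthl1 and Parp2 were in list 2 alone. Ogg1, Mutyh, Neil1 and Neil2, glycosylases or partners in oxidised base repair, had no row in the lists.

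Nucleotide excision and transcription-coupled repair had a site in 15 of 29 genes, 14 with the term. Both lists named 4 of the 14, list 1 alone 3 and list 2 alone 7. Uvssa, which brings the stalled polymerase into repair, had one of the closest pairs of values, 298.03 and 309.16, at chr5:33417545-33417923 in list 1 and 1 base shorter in list 2. Ercc3, the helicase of the transcription factor TFIIH, had 8.91 and 2.14, and the score in list 2 was 4.74. Ercc6, the gene of Cockayne syndrome B, had 125.92 in list 1 and 6.81 in list 2, with 1683 bases between the nearest sites. Ddb1, the damage-binding adaptor, had 67.65 in list 1 and 2.1 in list 2 at sites 6188 bases apart, with an FDR of 100% in list 2. Cdk7 (71) and Xpc (26.46), the sensor of bulky lesions, were in list 1 alone, and Ercc4 (20.6) and Rpa1 (29.96) in list 2 alone. Xpa, Rad23b and Cetn2 had no row.

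Mismatch repair had a site in 4 of 7 genes, 2 with the term. Msh6, which recognises single mismatches, had similar folds, 19.13 and 23.25, at sites 736 bases apart, with FDRs of 60.4% and 68.3%. Pms2 had 2 sites in list 1 (70.33 and 33.74) and none in list 2. Msh3 and Mlh3 had no row in the lists.

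Translesion synthesis and replication polymerase genes had a site in 14 of 31 genes, 8 with the term. Rev3l, the catalytic subunit of the translesion polymerase zeta, had the longest site of any repair gene in each list, 748 and 916 bases from the same first base (chr10:39821653-39822400 in list 1), with folds of 139.85 and 243.29. Pole, the leading strand polymerase, had 236.67 and 33.23 over an identical interval, chr5:110303575-110303667. Shprh, a ubiquitin ligase of the clamp, had 139.38 and 73.45 at sites that did not overlap, and Rad18, which starts clamp ubiquitination, had 205.32 in list 2 alone. Pcna, the clamp, had 2.76 in list 1 alone at an FDR of 100%. Rev1, Mad2l2, Polh and Poli had no row in the lists.

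SMC complexes, the rings that hold or shape chromosomes, had a site in 11 of 16 genes. Of the 5 genes with the term 4 were in both lists and 3 had an overlapping site. The subunits of the Smc5/6 complex both had one: Smc6 with 378.21 and 175.69 at chr12:11301522-11301667 and Smc5 with 44.99 and 250.44 at chr19:23243855-23244110, each interval the same in both lists. Smc1a, a cohesin subunit, had 83.42 and 99.72 at chrX:152028041-152028181 but 156.42 and 2.17 at chrX:152036102-152036248. Both Smc1a intervals were identical between the lists, so that 1 site of the gene agreed within 2-fold and the other did not. Rad21, the cohesin kleisin, had 42.48 and 21.15 at sites 7105 bases apart. Nsmce1, Nsmce2, Nsmce3 and Eid3 had no row. Of the 6 genes without the term 5 were in both lists.

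Chromatin genes had a site in 25 of 48 genes, 12 with the term. Of these, 6 were in both lists, and each of the 6 had an overlapping site. Besides Trrap and Ino80d they were Actr5, an actin-related subunit of the Ino80 complex (33.38 and 46.02), Supt16, a subunit of the histone chaperone FACT (11.61 and 45.95), Ino80 (8.71 and 9.08) and Morf4l1 (3.03 and 8.93). The FDR was 100% in both lists for Ino80, and in list 1 for Supt16 and Morf4l1, where the Morf4l1 score was 8.76. Ino80b, Ino80e, Actr8 and Actl6a had no row. Of the 13 genes without the term 8 were in both lists, among them Ep400 (263 and 313.84 as highest folds), with an overlapping site.

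Ubiquitin and SUMO enzymes had a site in 21 of 30 genes, 12 with the term, of which 9 were named by both lists, 3 by list 2 alone and 0 by list 1 alone. The deubiquitinase Usp45, which acts on the nuclease subunit Ercc1, had 206.72 and 110.1, and Usp10 had 98.59 and 22.67. Usp47, which acts on polymerase beta, had 172.35 and 5.71 over the identical interval chr7:112101738-112101913, and 9 sites in list 2 in all. Sprtn, the protease of DNA-protein crosslinks, had 3.08 and 22.63 at short sites of 17 and 36 bases, with an FDR of 100% in list 1. In Herc2 (highest folds 20.97 and 109.51), Trip12 (15.74 and 109.11) and Psmd14 (32.35 and 6.81) no site of list 1 touched one of list 2. Usp28, Otub1, Otub2 and Rnf138 had no row.

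Direct reversal of damage had a site in 3 of 8 genes. Fto, a demethylase of m6A and of other methylated bases, had 133.47 and 7.57 at its overlapping site (chr8:91485159-91485403 in list 1), with an FDR of 55.8% in list 1 and 100% in list 2. Ascc3, the helicase that works with Alkbh3, had 269.38 and 8.34 at sites 71408 bases apart. Mgmt, Alkbh1, Alkbh2 and Alkbh3 had no row in the lists.

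**Figure D2:**
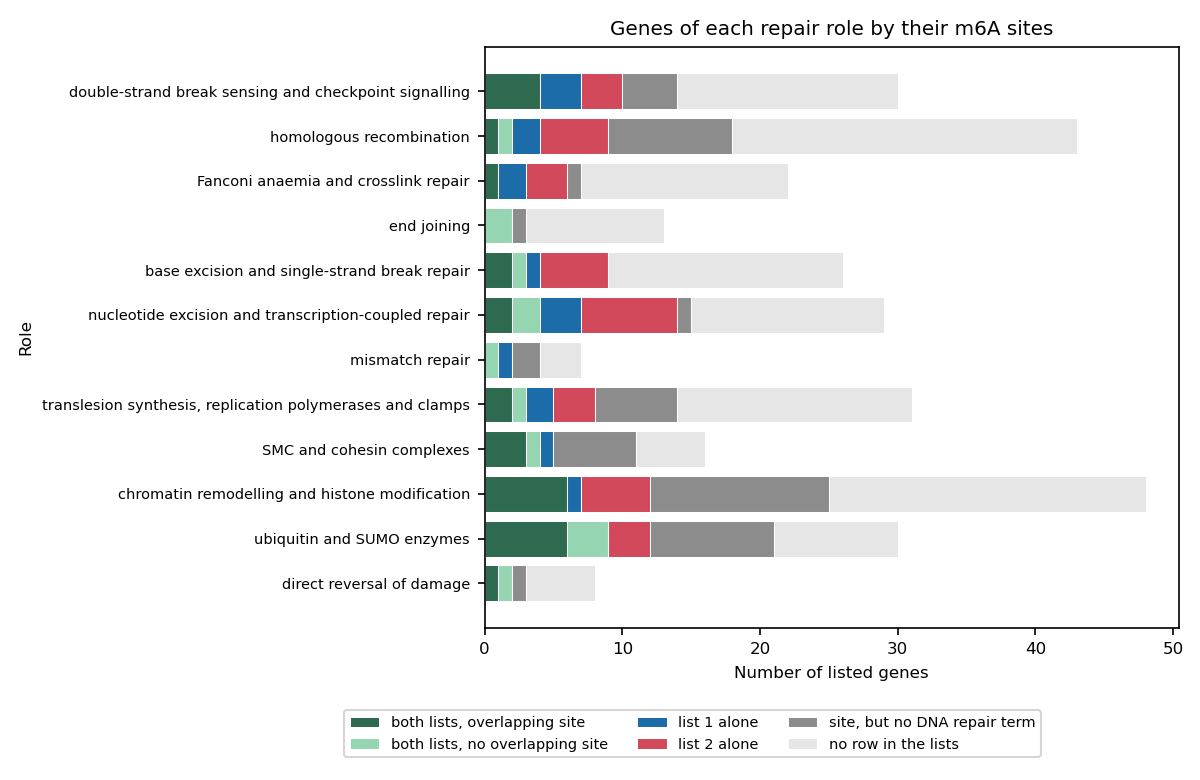
Genes of each repair role, listed on the y axis, with the number of listed genes on the x axis. Colours give genes with the DNA repair term and a site in both lists with or without an overlap, in list 1 alone (blue) or list 2 alone (red), genes with a site but without the term (dark grey), and genes with no row (light grey). All 6 chromatin genes and all 4 break sensing genes with the term found in both lists had an overlap, and none of the 2 end joining genes and 1 mismatch repair gene in both lists did, where 69.2% of all genes in both lists did.

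Over the 12 roles, 144 of 303 listed genes had a site, 91 of them with the term and 53 without. No share of all annotated genes with a site stands beside these counts, so they are no result about the roles. Of the 91, 41 were in both lists and 28 had an overlapping site. Of the 53 without the term 22 were in both lists and 16 overlapped. A further 36 repair genes stood in none of the roles, 17 of them in both lists and 11 with an overlap. Among these were Upf1, the helicase of nonsense-mediated decay (37.97 and 48.24), and Chaf1a, a histone chaperone (58.67 and 32.15). Neither Chaf1a site overlapped the RefSeq span of that gene. Far higher in list 1 were Mms22l, which acts at stalled forks (739.05 and 11.23, 66241 bases apart), and Ticrr, which acts in replication initiation (721.99 and 7.15, 4814 bases apart). Hspa1a, in both lists without an overlap (3.34 and 10.15), has a near-identical neighbouring copy, so its sites are uncertain. Among genes in a single list, high folds of list 1 were in Uvrag, Rrm2b (138.67 at a site of 19 bases), Cdk7 and Pms2. Those of list 2 were in Wrn, Hus1, Cdc14b (273.13), Rad18 and Apex2.

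At overlapping sites neither list was the higher one throughout, and single folds often differed by more than 2-fold. Taken as list 2 minus list 1, log2 folds at 51 pairs had a median difference of 0.05 and quartiles of -1.13 and 1.00, beside a median of -0.11 over all 2202 pairs. List 2 was higher in 26 pairs and list 1 in 25. Folds within 2-fold of each other were found in 24 pairs (47.1%, beside 51.8% of all pairs), and 18 pairs lay beyond 4-fold (35.3%, beside 24.9%). The genes closest in value at their strongest overlapping site were Babam1, Uvssa, Ino80, Zbtb1 (4.74 and 4.3) and Clspn. At that site Ino80, Zbtb1 and Clspn had an FDR of 100% in both lists. The widest gaps at that site were in Jmy, an actin regulator and cofactor of p53 (144.1 and 2.1), Usp47, Fto, Sprtn and Mbd4, of which only Sprtn was higher in list 2. Over all pairs the other Smc1a site, with 156.42 and 2.17, had the widest gap. An identical start and end in both lists was found for 21 pairs (41.2%; 31.9% of all pairs), and at these the median absolute log2 difference was still 1.00. For log2 folds over the 51 pairs Pearson's r was 0.61 and Spearman's rho 0.53, beside 0.56 and 0.54 over all pairs. Sites of a gene share its transcript and the libraries, and no p is given. Both FDRs were below 100% in 26 of the 51 pairs and both at 100% in 12, while over all pairs these shares were 30.2% and 43.1%.

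The highest fold of a repair gene tended to be above that of all genes, to a different extent in each list. A highest fold can rise with the number of sites, and the part of that number was not tested. Repair genes had a mean of 1.59 sites against 1.44 in list 1 and 2.08 against 1.63 in list 2. Over single sites the median fold was 26.3 against 11.6 in list 1 and 16.2 against 11.9 in list 2. In list 1 the median highest fold was 42.1 (quartiles 9.46 and 139) over 83 genes, beside 13.9 over all 4187 genes. In list 2 it was 27.3 (quartiles 7.89 and 98.2) over 102 genes, beside 14.1 over 5045. Among sites with an FDR below 100% the medians were 93.0 against 69.3 in list 1, and in list 2 they were 51.9 against 51.7, so that the distance in list 2 was not seen there. An FDR of 100% was given to 43.2% of repair sites in list 1 and 43.9% in list 2, against 59.2% and 51.5% of all sites. Repair genes in both lists had higher medians than those in a single list, 63.7 against 13.8 in list 1 and 37.0 against 15.5 in list 2. Over all genes the same medians were 17.8 and 8.38 in list 1 and 17.6 and 11.2 in list 2. The lowest highest fold of a repair gene was 2.08 (Ap5s1) in list 1 and 2.07 (Ube2n) in list 2, next to the floor of 2 that the lists show.

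**Figure D3:**
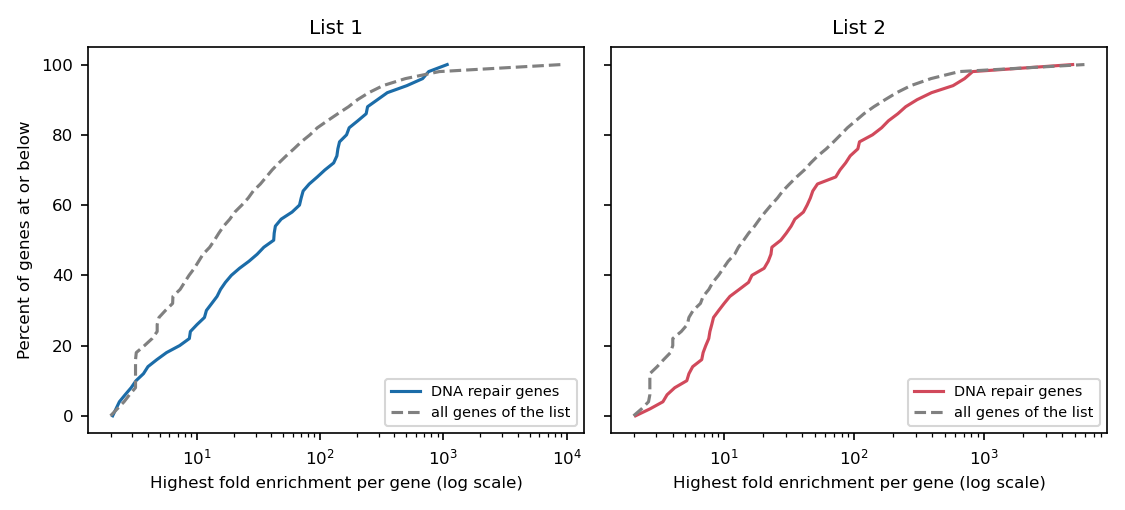
Highest fold enrichment per gene on a log x axis against the percent of genes at or below it on the y axis, for DNA repair genes (coloured line) and all genes of the list (dashed grey), with list 1 on the left and list 2 on the right. The line of the repair genes lies to the right at the median, 42.1 against 13.9 in list 1 and 27.3 against 14.1 in list 2. Near the top the lines cross in list 1, with 760 against 927 at the 98th percentile, where list 2 has 818 against 645. The single highest fold was lower in repair genes in both lists, 1074.32 against 9069.52 and 4823.75 against 5946.2.

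A smaller share of repair genes than of all genes had just 1 site in list 2, while in list 1 the value of all genes lay inside the interval. In list 1, 54 of 83 repair genes had just 1 site (65.1%, 54.3 to 74.4; all genes 72.6%), and in list 2 it was 51 of 102 (40.5% to 59.5%; all genes 65.6%). At an FDR below 100% the shares in list 2 were 68.6% and 68.8%, so that the difference was not seen there. The most sites of a repair gene in list 1 were 6, in Huwe1. The median genomic span was 42.5 kb, beside 34.0 kb over the 6447 genes with a RefSeq row. It was 55.4 kb for repair genes in both lists, 26.6 kb for list 1 alone and 43.6 kb for list 2 alone, and over all genes 45.7, 25.1 and 29.8 kb. The part of span or of expression in the number of sites was not tested. Repair sites were shorter than all sites, with a median of 150 bases against 183 in list 1 and 146 against 169 in list 2.

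Sites of repair genes lay more often in the 3′ than in the 5′ part of the gene. Strand was known for 106 of the 127 genes (83.5%), and position is along the genomic span, introns included, because exons were not used here. Of 5 equal parts of the span, the most 3′ part held 25.9% of 112 sites in list 1 and 33.1% of 169 in list 2, and the most 5′ part 11.6% and 11.8%. Within 1000 bases of the 3′ end lay 9.82% and 8.88% of sites, and within 1000 bases of the gene start 8.04% and 4.73%. These stranded shares were not computed over all sites, so a difference of repair genes from other genes was not tested. Without regard to strand, 18.3% of repair sites in list 1 and 12.8% in list 2 lay within 1000 bases of either end, against 22.5% and 19.8% of all sites that overlap their annotated gene. Examples near the 3′ end were Smc6 (fold 59.46 in list 1, 766 bases from the end), Herc2 (19.92 in list 1, 350 bases) and 2 sites of Usp47 in list 2 (12.52 and 10).

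**Figure D4:**
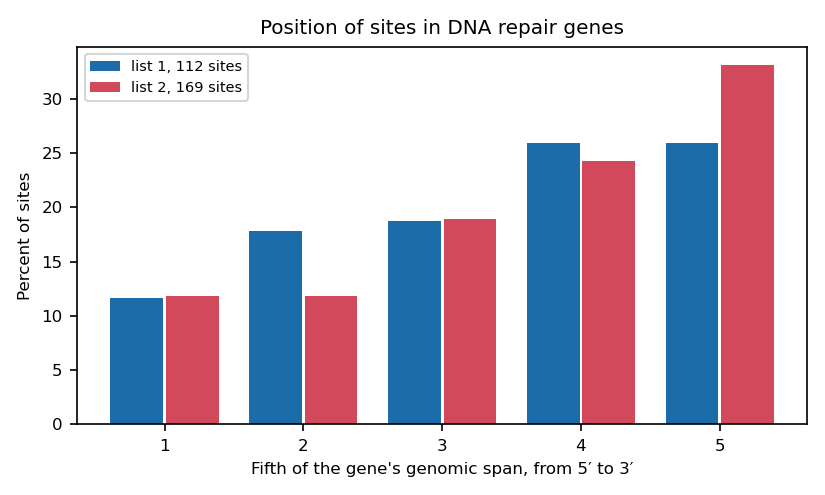
Percent of the sites of DNA repair genes (y axis) in each of 5 equal parts of the gene's genomic span from 5′ to 3′ (x axis), blue bars for 112 sites of list 1 and red bars for 169 sites of list 2. The share goes from 11.6% and 11.8% in the most 5′ part to 25.9% and 33.1% in the most 3′ part. The same shares over all sites were not computed.

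The repair genes also held other annotation, part of which, such as the repair pathways, restates the term that chose them. The cell cycle term was held by 26 of the 127, and by 253 of all 6625 genes. DNA replication was held by 19, of 62 over all genes, and protein ubiquitination by 11, of 96. Among deposited pathways, nucleotide excision repair held 16 of the genes, of 21 over all genes, with 4 of the 16 in both lists. Ubiquitin mediated proteolysis held 15, of 80 over all genes, with 6 of the 15 in both. The Fanconi anemia pathway held 13, of 18, with 2 of the 13 in both lists. Base excision repair held 11, of 13, with 4 of the 11 in both. The nucleus was annotated for 115 of the 2454 genes with that term and the chromosome for 22 of 143. Of these 22, picked after their values were seen, 15 were in both lists and 10 had an overlapping site. Beside these and the pathway counts, 45.7% of the 127 repair genes were in both lists and 30.7% had an overlap. Over all genes these shares were 39.4% and 27.2%.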

How the data were processed

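The 2 deposited lists hold methylated mRNA sites called by the authors, with site names that carry MACS. Per the labels' protocols, polyadenylated RNA was fragmented and recovered with a polyclonal m6A antibody. Coordinates are on GRCm38, which the submitters' processing notes name. No source used here names the aligner, the caller version, filters or pooling. For each site the authors deposited a fold enrichment, the ratio of IP to input, of at least 2. Their deposited score is -10 log10 of the p-value and has many ties at 3100. FDR is deposited as a percent. Per the file headers, each site has a length, a start and an end in bases, and starts were shifted to count from 1. Depth is unknown, so no floor or interval of a fold can be given. Wilson intervals (95%) over genes or sites cover counting error only.

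Genes were chosen by the Gene Ontology term for DNA repair. Members, role lists and rules were chosen with earlier results of these data known. Overlap needed 1 base on the same chromosome. Pairs were taken once each, largest overlap first. Genomic spans, strands and promoter sequences are from RefSeq (GRCm38.p6), and gene identifiers of all 127 genes matched. Named genes are the 10 with the highest lower fold at an overlapping site, the 5 with the most such sites, the 5 widest and 5 closest differences, 5 per single list, and up to 4 with and 4 without a site per role. Others were named after their values were seen, and a few genes that the rule names are not reported here. The overlap step was tested on simulated data. Python 3.11.15, pandas 2.3.3, numpy 2.4.6 and scipy 1.17.1 were used.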

Additional observations from a re-analysis of the deposited data

How the results depend on the processing

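The share of repair genes in both lists (45.7%) kept within its interval under 8 of 9 alternatives and was 36.3% with sites at an FDR below 100%, where all genes gave 25.9%. The share with an overlapping site and the shares of overlapping sites stayed within their intervals under all alternatives run, from 24.2% to 31.9% of genes. The median highest fold moved most. In list 1 it was 93.0 with an FDR below 100%, 73.0 in the 50% of sites with the higher fold and 75.04 in the 50% with the higher score. In list 2 it was 51.9, 71.4 and 51.9 in the same order, and 16.1 as the median over a gene's sites. Against all genes the ratio ranged from 1.34 to 3.08 in list 1 and from 1.00 to 2.12 in list 2. The share of genes with a single site in list 2 was 68.6%, 65.2% and 68.6% under those 3 thresholds, where all genes gave 68.8%, 71.0% and 68.7%, so that the difference from all genes was lost at the first and the last. In list 1 it was 74.6% with the higher score, where all genes gave 75.05%. A threshold keeps fewer sites by construction. The median log2 difference at pairs stayed within its interval, from -0.03 to 0.26. Of the 39 genes with an overlapping site, 28 kept one at a p of 1e-05 or less, 22 at an FDR below 100% and 33 at a reciprocal overlap of 50%. Restricting the comparison to genes with a process annotation, chosen after seeing the data, gave 39.7% in both lists. Each list is given on its own where a value can be had. No paired analysis was possible because the results come from no test and the lists carry no replicate number, and for the same reason no replicate could be left out.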
